A study of Homo sapiens with 6 samples.

Results

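The genes described here are 38 components of autophagy: the proteins that build the autophagosome and the receptors that carry cargo into it. They were chosen by name, as the probe sets that the annotation of the HG-U133 Plus 2.0 array assigns to a listed gene and to no other. All 38 had such a probe set, out of 19775 genes on the array that do. Together they had 99 of the 54613 probe sets that are not controls. RNA came from Kasumi-1, an established acute myeloid leukaemia cell line with the RUNX1-RUNX1T1 fusion, cultured in medium with serum and given vehicle or 20 nM homoharringtonine (HHT) for 24 h, with 3 arrays per condition. HHT is a plant alkaloid that blocks the elongation step of translation, and the series title links it to MYC and to NF-kB repressing factor. A single cell line and a single dose and time limit what the comparison covers, and the labels do not say whether the 3 arrays of a group came from separate cultures.

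In autophagy, a double membrane closes around cytoplasm or a selected cargo and then fuses with the lysosome, where the content is digested. A kinase complex built on ULK1 starts the process, a lipid kinase complex built on BECN1 and PIK3C3 marks the growing membrane with phosphatidylinositol 3-phosphate (PI3P), and WIPI proteins read that mark. A ubiquitin-like conjugation system then couples the ATG8 family, MAP1LC3 and GABARAP proteins, to the membrane lipid. Cargo receptors such as SQSTM1 bind both ubiquitin and the ATG8 proteins, and they are digested along with what they carry. Messenger RNA levels therefore do not measure the rate of autophagy.

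Values are log2 signals, so a difference of 1 is a factor of 2. A gene was represented by its probe set of highest mean, and it is said to have risen or fallen where limma's adjusted p (Benjamini-Hochberg over 32768 probe sets) was under 0.05. Probe sets in the lowest 40% by mean, under a level of 4.80, were not tested. For 1 gene, ULK2, all 4 probe sets lay in that range, so 37 of the 38 genes were tested. Of the markers listed for Kasumi-1, KIT (14.17 to 14.99), MPO (12.48 to 14.47), RUNX1T1 (13.16 to 13.27) and PTPRC (12.38 to 13.23) were bright on all 6 arrays. CD34 was dimmer (7.75 to 9.25). Markers of other cell types were mixed. CD3D of T cells was bright (11.60 to 11.88) but CD3E dim (3.77 to 6.24), and EPCAM of epithelial cells was bright (12.85 to 13.71, -0.76 after HHT, adjusted p = 1.58e-06) but KRT18 dim (5.01 to 6.38). CD14 of monocytes (1.16 to 3.51), MS4A1 of B cells (4.65 to 5.71) and COL1A2 and COL3A1 of fibroblasts (2.74 to 5.62) were dim, and CSF1R of monocytes (4.78 to 6.60) fell by 1.16 (adjusted p = 0.0197). Of the 5 measured Kasumi-1 markers, MPO (-1.76), CD34 (-1.18) and KIT (-0.62) fell, PTPRC rose (0.77) and RUNX1T1 was not called, and the part of such shifts in the changes below was not tested. The 3 HHT arrays had lower medians than the vehicle arrays, by 0.24 on average, and lower hybridisation controls, bacterial and phage RNAs added before hybridisation, by 0.28. The changes were therefore also computed with either of these set equal on all arrays. As whole cultures were measured, less RNA per cell and fewer cells that hold a transcript cannot be told apart.

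Of the 37 tested autophagy genes, 21 rose and 1 fell after HHT. Over all 13572 genes tested, 53.8% changed, made up of 29.6% that rose and 24.2% that fell. The share that rose among the autophagy genes was 56.8%. Their median change was 0.29, where the median of all genes was 0.00 to 2 decimals. With each array shifted to an equal median, 25 autophagy genes rose and none fell in limma's test (none also at an unadjusted p under 0.05), against 37.3% and 12.7% of all genes, and the 2 median changes moved together to 0.53 and 0.24. Scaling to the hybridisation controls again gave 25 and 0, against 41.6% and 12.8% of all genes. After quantile normalization 18 rose and 3 fell, against 29.9% and 22.9% of all genes, with median changes of 0.26 and 0.05. For RB1CC1, MAP1LC3B and GABARAPL1 another probe set was the brighter one on the vehicle arrays alone. When each gene was read from its brightest probe set in vehicle, a choice tried after the values were seen, these 3 were not called, 18 genes rose and 1 fell, against 28.9% and 24.7% of all genes, and the median change was 0.19. A change of at least 1 was reached by 7 of the genes that rose, SQSTM1, NBR1, OPTN, WIPI1, GABARAPL1, ATG4C and ATG14, where 9.56% of all genes rose that far. None of the 37 fell by at least 1, against 5.94% of all genes. The 3 HHT values lay above all 3 vehicle values for 23 of the 37 genes (33.2% of all genes) and below them for 3 (29.0% of all genes).

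**Figure D1:**
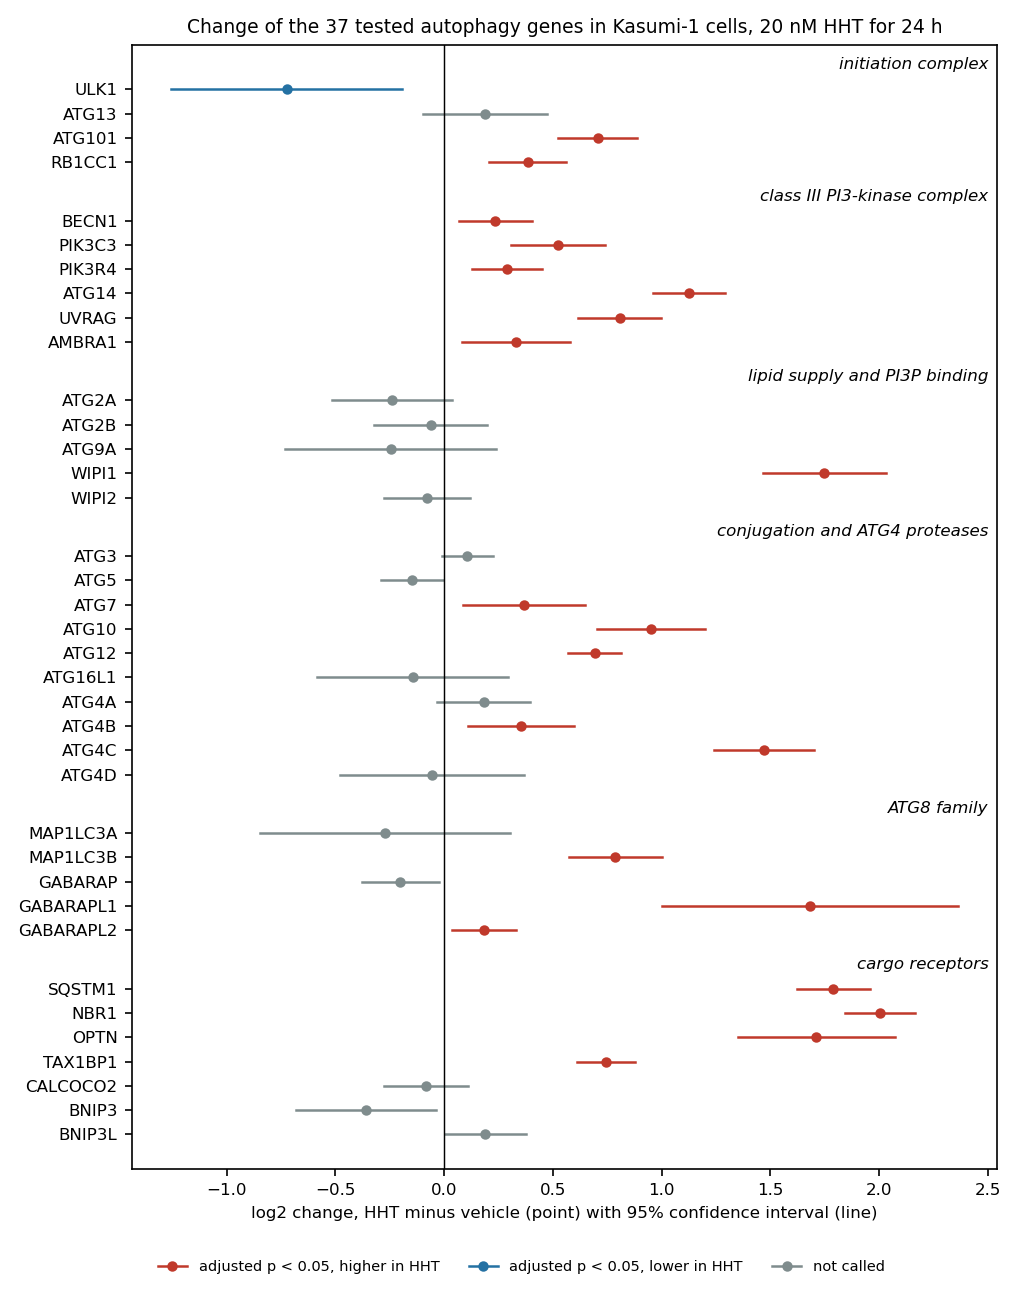
Log2 change from vehicle to HHT of the 37 tested genes, grouped by role, with points for the fitted change on the probe set of highest mean and lines for its 95% confidence interval. All 6 genes of the lipid kinase complex and 4 of the 7 cargo receptors lie to the right of 0 and passed the test. ULK1 is the single gene that passed it on the left. Of all genes tested, 29.6% rose and 24.2% fell.

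The cargo receptors held the largest changes, those of NBR1 and SQSTM1. SQSTM1, NBR1, OPTN and TAX1BP1, which bind ubiquitin-marked cargo, rose, which makes 4 of the 7 receptors, where 29.6% of all genes rose. CALCOCO2, which also binds ubiquitin, and the mitochondrial receptors BNIP3 and BNIP3L did not pass the test. To show what lies ahead of the genes that rose, the 150 bases before the listed transcription start furthest upstream follow, with the start furthest downstream also given for SQSTM1. They are from RefSeq, build GRCh38.p14, written 5′ to 3′ in the direction of the gene. Capitals would mark the sequence CACGTG, the E-box core that MYC and the TFEB family can bind, and none of these 5 stretches holds it.
SQSTM1, first start, chr5:179806243-179806392, plus strand: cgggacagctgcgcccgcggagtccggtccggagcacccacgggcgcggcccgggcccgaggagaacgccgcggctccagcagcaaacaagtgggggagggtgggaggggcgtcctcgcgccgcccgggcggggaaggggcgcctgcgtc
SQSTM1, last start, chr5:179820755-179820904, plus strand: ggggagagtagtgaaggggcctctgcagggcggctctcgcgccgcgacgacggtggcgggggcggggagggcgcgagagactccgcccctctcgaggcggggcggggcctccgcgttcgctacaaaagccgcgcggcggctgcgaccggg
NBR1, chr17:43170259-43170408, plus strand: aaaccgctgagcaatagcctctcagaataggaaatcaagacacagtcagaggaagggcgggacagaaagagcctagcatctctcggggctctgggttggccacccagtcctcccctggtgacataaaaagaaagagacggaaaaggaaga
OPTN, chr10:13099932-13100081, plus strand: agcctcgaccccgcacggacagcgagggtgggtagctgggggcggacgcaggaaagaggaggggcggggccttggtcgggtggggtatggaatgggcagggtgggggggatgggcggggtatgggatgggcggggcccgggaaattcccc
TAX1BP1, chr7:27739223-27739372, plus strand: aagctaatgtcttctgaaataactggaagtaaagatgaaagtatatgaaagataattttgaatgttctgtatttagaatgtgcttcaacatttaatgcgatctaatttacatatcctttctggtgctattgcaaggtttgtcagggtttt
The base composition of these stretches was not alike: the share of G and C was 79.3% and 77.3% ahead of the SQSTM1 starts and 72.0% for OPTN, but 52.0% for NBR1 and 30.7% for TAX1BP1. NBR1, OPTN and TAX1BP1 each have 2 listed starts, of which only the one furthest upstream is shown. Which start these cells use was not examined.

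SQSTM1 encodes a ubiquitin-binding receptor that also gathers cargo into condensates. Its vehicle arrays read 10.25, 10.21 and 10.15 and its HHT arrays 12.08, 12.05 and 11.86. Every HHT array was thus well above every vehicle array. The gene rose by 1.79 (SE 0.0764, limma adjusted p = 6.08e-08), a 3.46-fold increase, from 10.21 ± 0.0519 to 12.00 ± 0.118 (SD, n = 3). Of its 4 dimmer probe sets, 213112_s_at (1.88, adjusted p = 0.0164) and 244804_at (0.56, adjusted p = 0.0171) also rose. In vehicle, 213112_s_at read 4.92, 3.62 and 5.92, near the filter level of 4.80. The remaining pair, 239004_at at 0.73 (adjusted p = 0.204) and 242568_s_at at -0.60 (adjusted p = 0.264), was not called and differed in sign.

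NBR1 encodes a receptor related to SQSTM1, with which it can act together. It read 10.24, 10.23 and 10.05 in vehicle and 12.17, 12.18 and 12.19 in HHT. The HHT arrays lay within 0.03 of each other and stood apart from the vehicle arrays. NBR1 rose by 2.00 (SE 0.0717, adjusted p = 2.67e-08), a 4.01-fold increase and the largest fitted change of the 37 genes. Its second tested probe set rose by 1.56 (adjusted p = 1.57e-05).

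OPTN encodes optineurin, a receptor that takes part in the removal of damaged mitochondria and of bacteria. Vehicle arrays read 8.14, 8.19 and 8.73, and HHT arrays 10.21, 10.13 and 9.85. Although vehicle replicate 3 was higher than the other two, the groups stayed apart. OPTN rose by 1.71 (SE 0.163, adjusted p = 9.77e-06), a 3.27-fold increase, and its dimmer probe set rose by 2.08 (adjusted p = 3.84e-06).

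TAX1BP1 encodes a receptor that binds ubiquitin and works with NBR1 and SQSTM1. It was already bright in vehicle, at 12.25, 12.20 and 12.09, and reached 12.96, 12.89 and 12.92 in HHT. The groups did not overlap. It rose by 0.74 (SE 0.0596, adjusted p = 3.00e-06), a 1.67-fold increase, with 0.67 and 0.53 on its other probe sets, both called.

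The other 3 receptors did not follow this pattern. CALCOCO2, which encodes NDP52, a receptor for bacteria and damaged mitochondria, overlapped between groups, with a change of -0.08 (95% interval -0.28 to 0.11, adjusted p = 0.465). None of its 4 probe sets was called. BNIP3, a mitochondrial outer membrane receptor, read 9.60, 10.25 and 10.06 in vehicle and 9.67, 9.63 and 9.54 in HHT. Its difference of -0.36 (interval -0.68 to -0.04, adjusted p = 0.0661) was not called, and without vehicle replicate 1, its lowest vehicle array, it was (-0.54, adjusted p = 0.00185). BNIP3L, its paralogue, differed by 0.19 (interval 0.0044 to 0.37, adjusted p = 0.0878), and overlapped between groups. It was called higher once medians were set equal (0.43, adjusted p = 0.0135) and once scaled to hybridisation controls (0.47, adjusted p = 0.000974). The change of BNIP3 minus that of BNIP3L, which a constant shift of an array cannot move, was -0.55 (SE 0.111, exact permutation p = 0.1, two-sided, the smallest that 3 against 3 arrays allow).

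**Figure D2:**
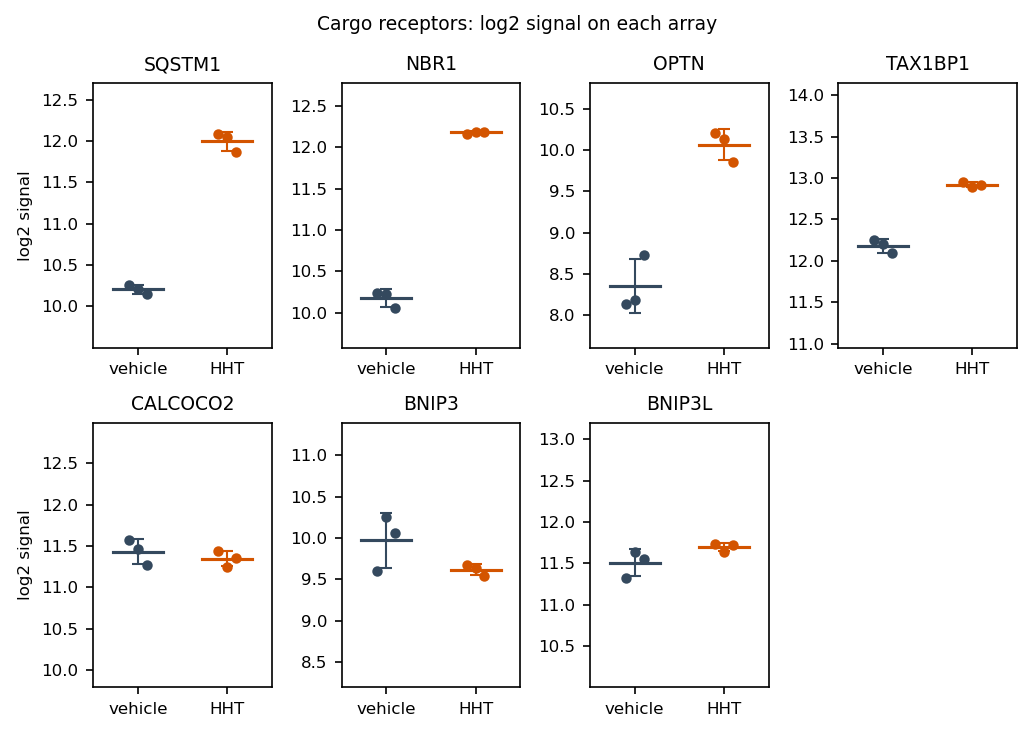
Log2 signal of the 7 cargo receptors on each array, with 3 vehicle and 3 HHT points per panel, a bar at the group mean and whiskers of 1 SD. Every panel spans the same range of log2 units, and SQSTM1, NBR1, OPTN and TAX1BP1 show separate groups while CALCOCO2, BNIP3 and BNIP3L overlap.

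Initiation genes moved in both directions. ULK1, the kinase that starts autophagy and is itself held in check by mTORC1, read 7.35, 7.27 and 7.10 in vehicle and 6.20, 6.91 and 6.45 in HHT. All HHT arrays were lower, with a wider spread than vehicle (SD 0.359 against 0.128). ULK1 fell by 0.72 (SE 0.239, adjusted p = 0.0296), a 1.65-fold decrease. The call did not hold once medians were set equal (-0.48, adjusted p = 0.148), once scaled to hybridisation controls (-0.44, adjusted p = 0.174) or without a filter (adjusted p = 0.0528), nor without vehicle replicate 1 (adjusted p = 0.0794), vehicle replicate 2 (0.0737), HHT replicate 1 (0.0894) or HHT replicate 3 (0.0749). For its paralogue ULK2, 4 probe sets stayed dim, and the brightest of these had means of 4.30 ± 1.03 and 3.37 ± 1.64.

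The scaffolds around ULK1 behaved differently. ATG101, which steadies ATG13 within the complex, read 10.21, 10.01 and 10.03 in vehicle and 10.74, 10.82 and 10.81 in HHT. Its groups were clearly apart, and it rose by 0.70 (SE 0.0809, adjusted p = 3.84e-05). RB1CC1, the large scaffold also called FIP200, rose by 0.38 (SE 0.0794, adjusted p = 0.00234), although 0.18 on the second probe set missed the threshold (adjusted p = 0.0931). ATG13, the adaptor that links kinase and scaffold, differed by 0.19 (interval -0.10 to 0.47, adjusted p = 0.262) and its probe sets disagreed in sign without any being called. ATG13 was called higher under the equal-median scaling (0.43, adjusted p = 0.0485) and the hybridisation-control scaling (0.47, adjusted p = 0.00877).

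All 6 genes listed for the class III PI3-kinase complex rose, where 29.6% of all genes did, with changes from 0.24 to 1.13 and a median of 0.43. ATG14 is the subunit that directs the kinase to autophagosome formation. Its vehicle arrays read 9.59, 9.56 and 9.59 and its HHT arrays 10.75, 10.67 and 10.70. Replicates lay close together, and the groups were far apart. ATG14 rose by 1.13 (SE 0.0739, adjusted p = 7.99e-07), a 2.18-fold increase. UVRAG, the subunit that takes the place of ATG14 in the form of the complex that acts on endosomes, rose by 0.81 (SE 0.0851, adjusted p = 2.10e-05). It read 10.09, 9.98 and 9.87 in vehicle and 10.83, 10.69 and 10.85 in HHT, again without overlap.

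Subunits shared by both forms moved less. PIK3C3, the catalytic subunit, read 11.47, 11.40 and 11.25 in vehicle and 12.10, 11.88 and 11.72 in HHT. It rose by 0.52 (SE 0.0977, adjusted p = 0.00119), and so did 1 dimmer probe set (0.31, adjusted p = 0.0310), while those at -0.11 and 0.02 were not called. The mean over its probe sets, 0.19, was not called (adjusted p = 0.150). PIK3R4, the regulatory subunit, rose by 0.29 (SE 0.0727, adjusted p = 0.00738). BECN1, the scaffold that BCL2 can hold inactive, read 11.03, 10.97 and 10.84 in vehicle and 11.28, 11.13 and 11.14 in HHT. It rose by 0.24 (SE 0.0765, adjusted p = 0.0271), and its second tested probe set by 0.44 (adjusted p = 0.00514). AMBRA1, which binds BECN1 and supports its activity, rose by 0.33 (SE 0.112, adjusted p = 0.0325) and by 0.59 on its other probe set (adjusted p = 0.00422). For BECN1 and AMBRA1 the groups did not overlap, but the calls were lost after quantile normalization (0.16, adjusted p = 0.123, and 0.22, adjusted p = 0.141), when the variance trend was left out (adjusted p = 0.0996 and 0.102) and in 3 fits each that left out 1 array: BECN1 without vehicle replicate 2 or 3 or HHT replicate 1, AMBRA1 without vehicle replicate 1 or HHT replicate 1 or 2.

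Among the factors that supply lipid and bind PI3P, WIPI1 stood alone. It read 7.54, 7.72 and 7.45 in vehicle and 9.35, 9.39 and 9.22 in HHT. Even the lowest HHT array was well above the highest vehicle array. WIPI1 rose by 1.75 (SE 0.127, adjusted p = 1.54e-06), a 3.36-fold increase, and by 2.20 on its second probe set (adjusted p = 7.75e-07). WIPI2, its paralogue and the one known to recruit ATG16L1, differed by -0.08 (interval -0.28 to 0.12, adjusted p = 0.503), with none of its 5 probe sets called. The mean of those probe sets was called lower (-0.35, adjusted p = 0.0284). The change of WIPI1 exceeded that of WIPI2 by 1.83 (SE 0.0734, exact permutation p = 0.1, two-sided), a value that a constant shift of an array cannot move.

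The lipid transfer proteins and the scramblase that work with the WIPI proteins were not called with all 6 arrays in the fit. ATG2A differed by -0.24 (interval -0.51 to 0.04, adjusted p = 0.142), and without vehicle replicate 2 it was called lower (-0.36, adjusted p = 0.0284). ATG9A, the membrane protein of the seed vesicles, differed by -0.25 (interval -0.73 to 0.24, adjusted p = 0.388). ATG2B gave a mixed picture. Its brightest probe set differed by -0.06 (adjusted p = 0.692), 2 dimmer ones rose by 0.83 (adjusted p = 0.000678) and 0.79 (adjusted p = 0.0390), and another at 0.33 was not called. The mean over the 4 was called higher (0.47, adjusted p = 0.0420).

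The conjugation machinery was divided. ATG12, the ubiquitin-like protein that is joined to ATG5, read 11.54, 11.52 and 11.53 in vehicle and 12.23, 12.24 and 12.20 in HHT. No gene of the list had a smaller spread between vehicle arrays (SD 0.00995). ATG12 rose by 0.69 (SE 0.0551, adjusted p = 2.82e-06), with 0.71 (adjusted p = 0.00194) and an uncalled 0.35 (adjusted p = 0.105) on the others. ATG10, the enzyme that makes that joint, read 8.72, 8.86 and 9.11 in vehicle and 9.85, 9.87 and 9.83 in HHT. It rose by 0.95 (SE 0.112, adjusted p = 4.49e-05), and by 1.27 on a second probe set (adjusted p = 8.19e-06). The other ATG10 probe sets, at 0.80 (adjusted p = 0.0899) and -0.22 (adjusted p = 0.692), were not called.

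ATG5 itself read 11.32, 11.29 and 11.29 in vehicle and 11.16, 11.08 and 11.22 in HHT. The groups did not overlap, yet the difference of -0.15 was small (interval -0.29 to -0.0043, adjusted p = 0.0861). A dimmer ATG5 probe set rose by 0.68 (adjusted p = 0.000285) and the third, at -0.06, was not called, so the direction depended on the probe set. ATG16L1, which places the ATG12 and ATG5 conjugate on the membrane, differed by -0.14 (interval -0.58 to 0.29, adjusted p = 0.582).

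ATG7 and ATG3, the activating enzyme and the enzyme that transfers ATG8 proteins to lipid, each had a probe set that went against the brightest. ATG7 read 8.11, 8.21 and 8.33 in vehicle and 8.49, 8.56 and 8.70 in HHT. It rose by 0.37 (SE 0.126, adjusted p = 0.0353), and by 0.45 on probe set 224025_s_at (adjusted p = 0.0338), while 222709_at at -0.03 was not called. Probe set 1569827_at read 6.83, 6.52 and 6.60 in vehicle and 4.86, 3.69 and 4.67 in HHT, a fitted change of -2.25 (adjusted p = 0.00143), with 2 HHT arrays under the filter level. The ATG7 call was lost after quantile normalization (0.33, adjusted p = 0.0620), without a filter (adjusted p = 0.0510) and in 4 fits that left out 1 array, namely either of vehicle replicates 1 and 2 and either of HHT replicates 2 and 3 (adjusted p from 0.0721 to 0.128).

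ATG3 showed a wider gap. Its bright probe set, 221492_s_at, read 12.94, 13.03 and 12.93 in vehicle and 13.06, 13.09 and 13.08 in HHT, a change of 0.11 that was not called (adjusted p = 0.125). Probe set 220237_at read 8.75, 8.94 and 8.22 in vehicle and 6.16, 5.69 and 6.26 in HHT. It fell by 2.60 (SE 0.238, adjusted p = 7.62e-06). The 2 ATG3 probe sets therefore did not report the same change, and which transcript each detects was not examined here. Under the other 3 scalings the bright probe set was called higher, by 0.33 to 0.39.

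Of the ATG4 proteases, which trim ATG8 proteins before conjugation and release them afterwards, ATG4C had the largest change. It read 8.95, 9.01 and 9.13 in vehicle and 10.62, 10.32 and 10.56 in HHT. The groups were more than 1 apart. ATG4C rose by 1.47 (SE 0.103, adjusted p = 1.21e-06), a 2.77-fold increase. ATG4B, regarded as the most active of the family, rose by 0.35 (SE 0.110, adjusted p = 0.0229), with 0.44 and 0.33 uncalled on its other probe sets. The ATG4B call was lost after quantile normalization (0.26, adjusted p = 0.0856) and without vehicle replicate 2 or HHT replicate 2 (adjusted p = 0.0776 and 0.107). ATG4A differed by 0.18 (interval -0.03 to 0.39, adjusted p = 0.150) and ATG4D by -0.06 (interval -0.48 to 0.37, adjusted p = 0.833). ATG4A was called higher under the equal-median scaling (0.42, adjusted p = 0.0273) and the hybridisation-control scaling (0.47, adjusted p = 0.00248). Within arrays, the change of ATG4C exceeded those of ATG4A by 1.29 (SE 0.119), ATG4B by 1.12 (SE 0.172) and ATG4D by 1.53 (SE 0.328), each with an exact permutation p of 0.1 (two-sided).

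Among the 5 ATG8 genes, 3 rose, unequally, where 29.6% of all genes did. GABARAPL1 read 6.22, 5.62 and 5.17 in vehicle and 7.52, 7.41 and 7.13 in HHT. Vehicle arrays were dim and varied by about 1, but the groups stayed apart. It rose by 1.68 (SE 0.307, adjusted p = 0.00103), a 3.20-fold increase (interval of the log2 change 1.00 to 2.36), while its second probe set, the brighter one in vehicle, differed by 0.61 without being called (adjusted p = 0.106). MAP1LC3B, the family member most used to follow autophagosomes, read 9.50, 9.50 and 9.26 in vehicle and 10.28, 10.12 and 10.21 in HHT. It rose by 0.79 (SE 0.0966, adjusted p = 6.23e-05), a 1.73-fold increase. The other MAP1LC3B probe set, 208785_s_at, brighter in vehicle, differed by -0.0044 and was not called (adjusted p = 0.980), so the rise rests on 1 of 2 probe sets.

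GABARAPL2 rose by 0.18 (SE 0.0666, adjusted p = 0.0437), a call that was lost on leaving out any array except vehicle replicate 1 (adjusted p from 0.0547 to 0.159), without a filter (adjusted p = 0.0700) and without a variance trend (adjusted p = 0.163). GABARAP, the founding member of its branch, differed by -0.20 (interval -0.38 to -0.02, adjusted p = 0.0619), with no overlap between groups. It was called lower without vehicle replicate 2 (-0.26, adjusted p = 0.0354). MAP1LC3A differed by -0.27 (interval -0.85 to 0.30, adjusted p = 0.418). Within arrays, the change of GABARAP was 1.88 below that of GABARAPL1 (-1.88, SE 0.287, exact permutation p = 0.1, two-sided). The change of MAP1LC3A was below that of MAP1LC3B (-1.06, SE 0.284, exact permutation p = 0.1, two-sided). Both differences used the probe sets of highest mean. The other probe sets of GABARAPL1 (0.61) and MAP1LC3B (-0.0044) were not called, and the differences were not computed from them. Over the 13 pairs of paralogues compared in this way, 9 had groups without overlap, and the adjusted p of each of these was 0.144. The share without overlap among pairs of other genes was not computed, so this count has no background to be set against. Of single genes, 33.2% had HHT above vehicle without overlap and 29.0% had it below.

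**Figure D3:**
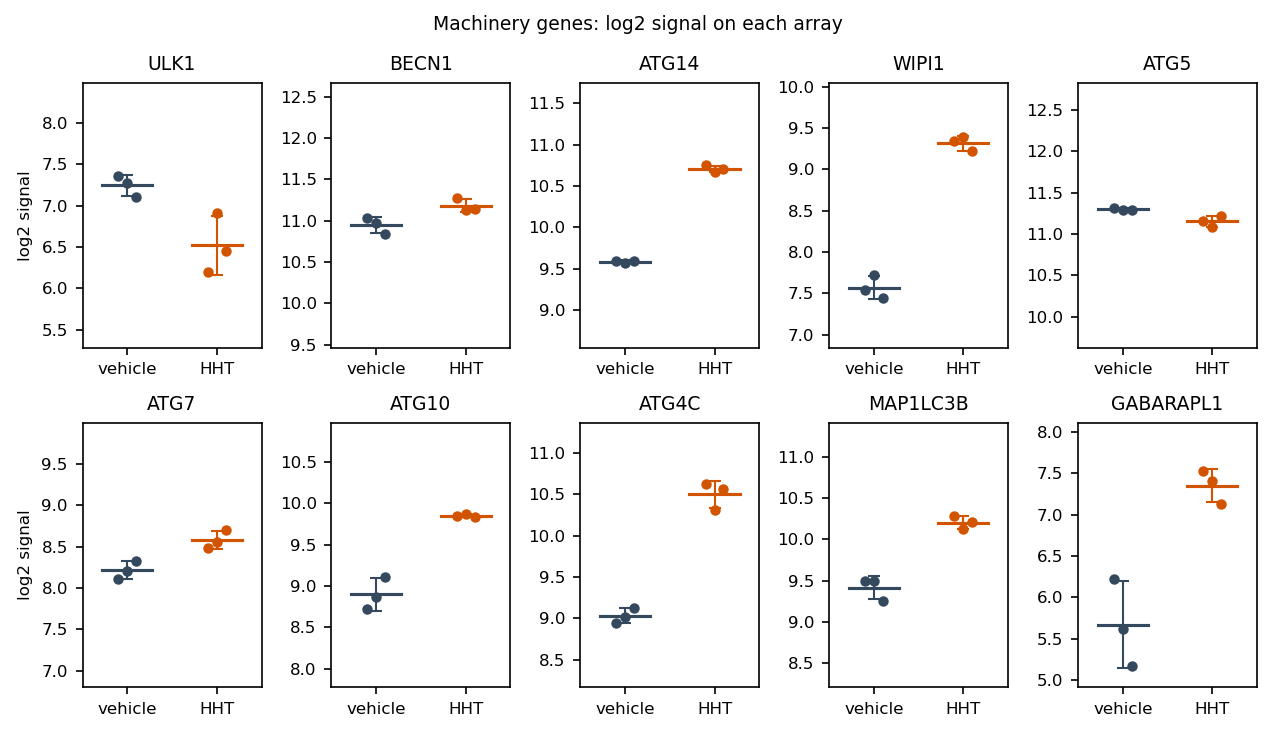
Log2 signal of 10 genes of the machinery on each array, with 3 vehicle and 3 HHT points, a bar at the mean and whiskers of 1 SD. Panels share the same span of log2 units, so the large separations of WIPI1, ATG4C, ATG14, ATG10 and GABARAPL1 can be set beside the small ones of BECN1, ATG5 and ATG7.

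Counted by probe set, 83 of the 99 were tested, 37 rose and 3 fell, where 23.0% and 23.3% of all tested probe sets did. Of the 25 genes with several tested probe sets, 6 had every one called higher (BECN1, AMBRA1, WIPI1, NBR1, OPTN and TAX1BP1). Another 10 had some called higher and others not called. The 2 with a probe set that fell were ATG3 and ATG7. The names of several probe sets end in _s_at or _x_at, which on this array marks probes shared between transcripts or prone to cross-hybridise.

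**Figure D4:**
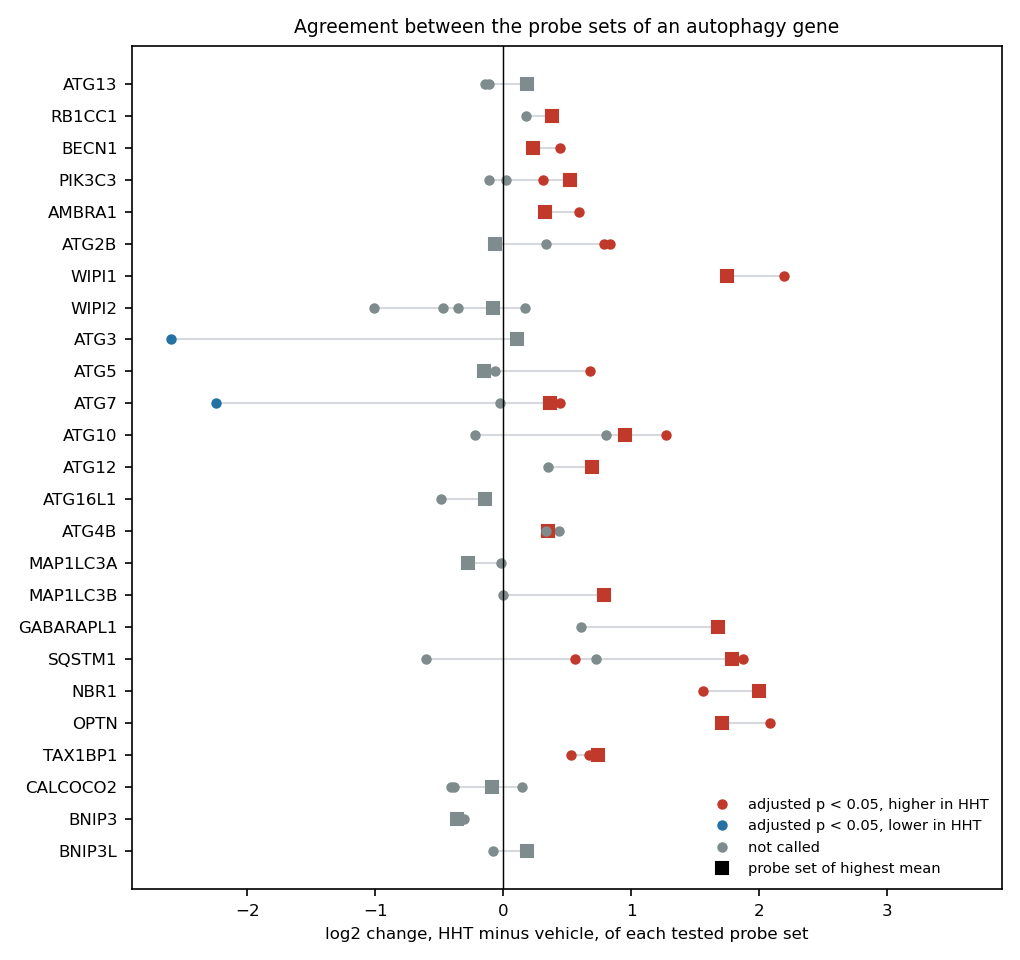
Log2 change of every tested probe set of the 25 genes that have more than 1, with squares for the probe set of highest mean and colours for the call. NBR1, OPTN, TAX1BP1 and WIPI1 show close agreement, whereas the points of ATG3 and ATG7 reach from above 0 to -2.60 and -2.25.

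Promoters were searched because factors that control autophagy genes have known binding sequences. The RefSeq table holds 41 starts for 33 of the 38 genes (not ULK-complex member RB1CC1, nor UVRAG, ATG4D, MAP1LC3A or BNIP3L), each with 250 bases before the start and 50 after it. The motifs searched on both strands were CACGTG, which is also the centre of the CLEAR motif of TFEB, the CLEAR motif itself, the FOXO site GTAAACA and TGANNNNGC. The last is a loose form of the core of the NRF2 site, so a match to it need not be that core. CACGTG stood at 3 of the 41 starts, or 7.32%, where 7.26% of the 35116 starts in the table hold it. The CLEAR motif stood at none (0.353% of all starts), GTAAACA only at that of CALCOCO2 (3.42% of all starts) and TGANNNNGC at 14 starts, or 34.1% (41.8% of all starts). A match describes the letters and is no evidence of binding.

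The 3 genes with CACGTG were ATG14, which rose, and ATG3 and BNIP3, whose bright probe sets were not called. The 150 bases before their starts are printed with the motif in capitals.
ATG14, chr14:55411831-55411980, minus strand: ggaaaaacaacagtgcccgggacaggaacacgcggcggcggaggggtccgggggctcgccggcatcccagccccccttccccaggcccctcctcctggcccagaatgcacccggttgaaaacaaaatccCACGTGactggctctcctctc
ATG3, chr3:112561963-112562112, minus strand: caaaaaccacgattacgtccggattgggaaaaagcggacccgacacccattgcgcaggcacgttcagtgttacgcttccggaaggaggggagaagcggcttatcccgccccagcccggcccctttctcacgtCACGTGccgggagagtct
BNIP3, chr10:131981924-131982073, minus strand: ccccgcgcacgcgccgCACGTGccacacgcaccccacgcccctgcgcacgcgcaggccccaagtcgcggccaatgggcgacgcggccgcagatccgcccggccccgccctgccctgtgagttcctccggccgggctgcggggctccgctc
The motif begins 21 bases before the ATG14 start, 18 before the ATG3 start and 134 before the BNIP3 start, and ATG3 holds a second copy just after its start. Among the 19 genes that rose and have an entry, ATG14 was the only one with CACGTG in this window.

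Other genes of the pathway were read from a list of 44, written with earlier results of these data known. A probe set of their own was found for 43 and a tested one for 40, of which 21 rose and 6 fell, a share of 52.5% and 15.0%, with a median change of 0.40, where 29.6% and 24.2% of all genes did. The equal-median scaling gave 27 and 2 (37.3% and 12.7% of all genes), and the hybridisation-control scaling 28 and 2 (41.6% and 12.8%).

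Transcription factors of autophagy and lysosome genes had the highest median of these sub-lists, 0.90, and 5 of 6 rose, where 29.6% of all genes did. This count takes no account of whether a factor activates or represses such genes. TFE3, a relative of TFEB that enters the nucleus when mTORC1 is low, read 8.69, 9.11 and 9.24 in vehicle and 11.35, 11.17 and 11.20 in HHT. It rose by 2.23 (SE 0.130, adjusted p = 3.81e-07), a 4.70-fold increase, and by 1.38 on a second probe set (adjusted p = 0.000224), while a dim one at -0.96 was not called (adjusted p = 0.135). TFEB read 6.68, 6.71 and 6.94 in vehicle and 8.49, 8.47 and 8.03 in HHT, and rose by 1.55 (SE 0.185, adjusted p = 5.12e-05). FOXO1 rose by 0.92 (SE 0.147, adjusted p = 0.000419), a call lost for the mean of its probe sets (0.68, adjusted p = 0.0730). MITF, of the same family as TFE3, differed by -0.37 (adjusted p = 0.330) on a dim probe set.

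Genes of fusion with the lysosome were mixed, 4 of 8 higher and 2 lower, against 29.6% and 24.2% of all genes. STX17, the membrane fusion protein of the closed autophagosome, rose by 1.39 (SE 0.116, adjusted p = 3.86e-06), with 3 of its other 4 probe sets also called. EPG5, a tether between autophagosome and lysosome, rose by 1.09 (SE 0.0955, adjusted p = 5.57e-06) and YKT6, another fusion protein, by 0.93 (SE 0.143, adjusted p = 0.000330). VAMP8, the partner of STX17 on the lysosome, fell by 0.42 (SE 0.0542, adjusted p = 9.36e-05), and RAB7A, a guanosine triphosphatase of late endosomes, by 0.26 (SE 0.0691, adjusted p = 0.0102). On these probe sets neither was called under the equal-median scaling (-0.18, adjusted p = 0.201, and -0.02, adjusted p = 0.909) or the hybridisation-control scaling (-0.13, adjusted p = 0.0971, and 0.02, adjusted p = 0.829). RAB7A fell further on 2 dimmer probe sets, by 1.11 on 211960_s_at (adjusted p = 1.48e-06) and by 1.16 on 223760_s_at (adjusted p = 0.00257).

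Of 18 selective receptors and their regulators 7 rose (38.9%) and 4 fell (22.2%), shares near the 29.6% and 24.2% of all genes. RETREG1, a receptor for the endoplasmic reticulum, rose by 1.55 (SE 0.182, adjusted p = 4.68e-05) on 1 of 3 tested probe sets, with a mean over them that was not called (0.98, adjusted p = 0.0749). SEC62, which serves the same organelle during recovery from stress, rose by 0.94 (adjusted p = 2.20e-05), and all its 5 probe sets were called. WDFY3, a scaffold that links aggregates to the ATG8 system, rose by 0.81 (SE 0.105, adjusted p = 9.12e-05). A dimmer WDFY3 probe set rose by 1.14 (adjusted p = 0.000147), while those at 0.22 and 0.16 were not called. RTN3, another receptor for the endoplasmic reticulum, fell by 0.70 (SE 0.0817, adjusted p = 4.42e-05), as did the mitochondrial protein NIPSNAP1, by 0.69 (SE 0.0723, adjusted p = 1.93e-05). ATL3, a receptor for tubules of that organelle, fell by 0.32 (SE 0.0698, adjusted p = 0.00354), a call lost under the equal-median scaling (-0.08, adjusted p = 0.594) and the hybridisation-control scaling (-0.03, adjusted p = 0.791). Endoplasmic reticulum receptors thus moved in both directions. The fall of NIPSNAP1 rested on the brighter of its 2 tested probe sets. The dimmer one differed by -0.15 and was not called (adjusted p = 0.554).

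Of 8 tested core and membrane factors 5 rose and 3 were not called, where 29.6% of all genes rose. TMEM41B, not called at 0.04, had another probe set, 212623_at, that was brighter in vehicle and fell by 0.36 (adjusted p = 0.00272). TECPR1, which binds the ATG12 and ATG5 conjugate, rose by 1.12 (SE 0.0948, adjusted p = 4.21e-06). A dimmer TECPR1 probe set rose by 0.75 (adjusted p = 0.00914), and another at 0.47 was not called (adjusted p = 0.0690). RUBCN, an inhibitor of the PI3-kinase complex that contains UVRAG, rose by 0.66 (SE 0.121, adjusted p = 0.00106), so that a brake on the process was among the genes that rose. ATG16L2 rose by 0.68 (SE 0.140, adjusted p = 0.00223), while its other probe set differed by -0.43 (adjusted p = 0.0937) and the mean of both was not called (0.12, adjusted p = 0.504).

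**Figure D5:**
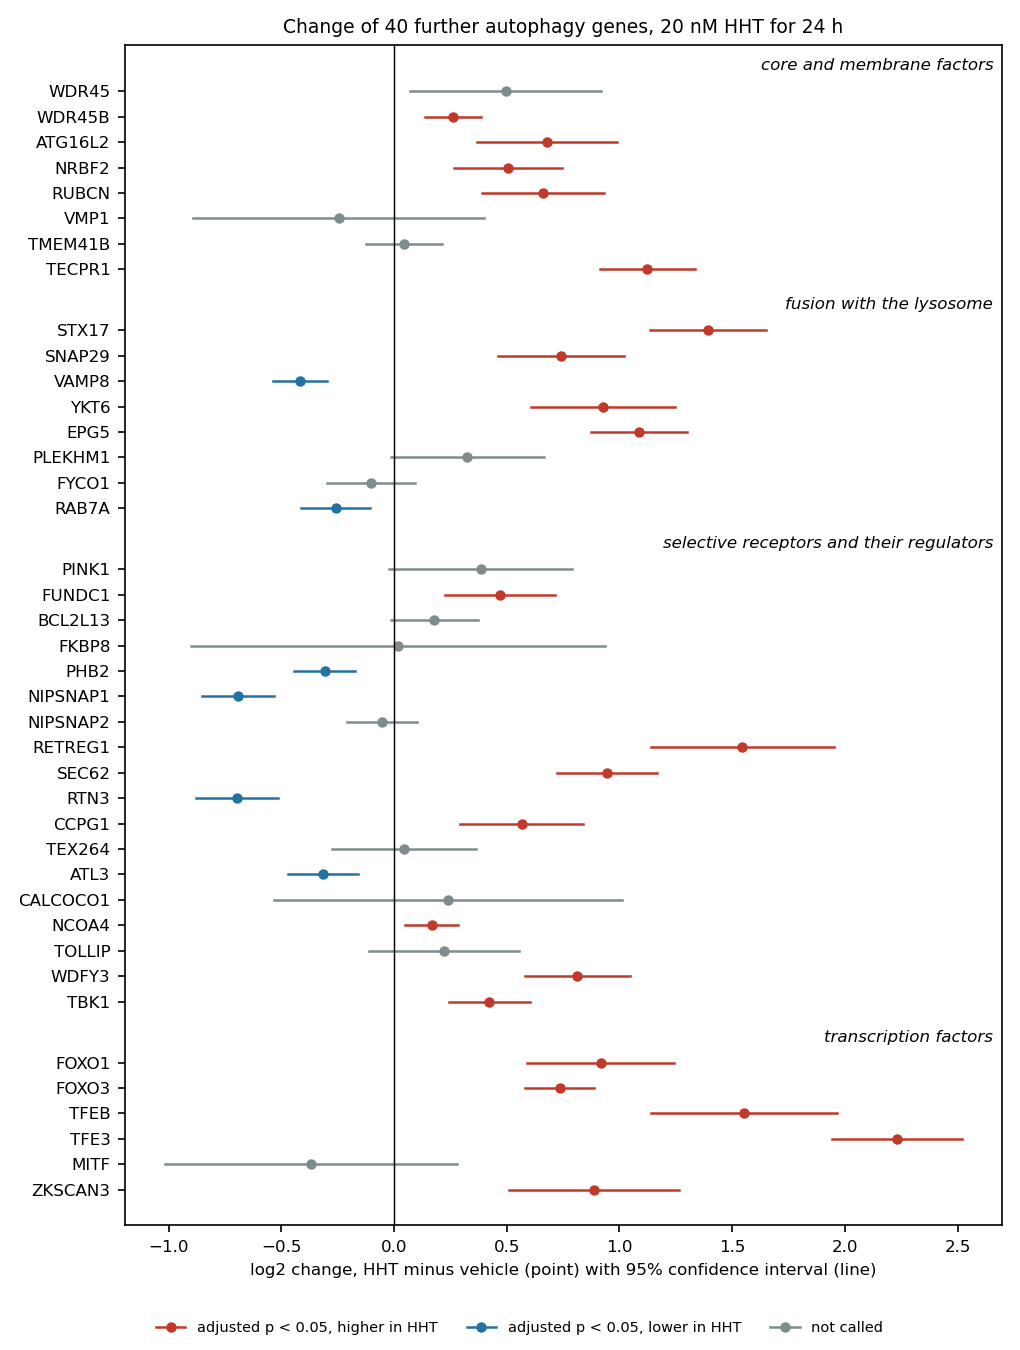
Log2 change from vehicle to HHT of the 40 tested further autophagy genes, grouped by role, with points for the fitted change and lines for the 95% confidence interval. TFE3 and TFEB, with RETREG1 and STX17, lie farthest to the right, and RTN3 and NIPSNAP1 farthest to the left among genes that passed the test.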

How the data were processed

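Single-colour Affymetrix 3' expression arrays measured RNA from 3 vehicle and 3 HHT samples. The deposited values are log2 signals of 54675 probe sets. The authors used MAS5, per the submitters' processing notes, without a version, and the trimmed mean of the antilog signals was equal on all arrays (499.92 to 499.93). The sources used here give no scan dates, detection calls or genome build. Each p-value therefore rests on a spread between arrays that may be only technical, and 3 arrays a group limit the precision. The arrays are numbered with vehicle first, so a drift in that order and HHT cannot be told apart.

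The 62 control probe sets and the lowest 40% of the rest were left out, and 32768 probe sets were fitted with limma 3.58.1 in R 4.3.3 (lmFit, eBayes with a variance trend), with Benjamini-Hochberg adjustment. Errors of changes are standard errors, those of means SDs over 3 arrays. Of the probe sets, 41091 had 1 gene in the platform annotation, 1801 several and 11721 none listed, and symbols were updated through RefSeq. The fit was tested on simulated data with far fewer changed probe sets than here and no shift between arrays, so that test does not cover these conditions. All 38 genes are accounted for, and values on every array are given for those called with a change of at least 0.5 and for ULK1, BECN1, ATG5, ATG7, MAP1LC3B and SQSTM1. From the further lists, up to 3 genes called in each direction per sub-list were named. Members, lists and rules were chosen with earlier results of these data known, and the paralogue pairs after the values were seen.

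Same-numbered arrays deviated from their group means with correlations of 0.0655, -0.0141 and 0.0491 across probe sets, and unlike-numbered ones with -0.0887 to 0.0424. Deviations within a group sum to 0, so these values cannot settle whether the numbers pair samples. The labels do not say that they do, and the main fit did not pair them. Alternatives were other scalings, pseudocounts, filters, variance models and thresholds, a replicate block, averaging the probe sets of each gene, omitting each array in turn and, added after the values were seen, choosing probe sets by their vehicle mean.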

Additional observations from a re-analysis of the deposited data

Results flagged for a closer look

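A probe set annotated to both GABARAPL1 and GABARAPL3 was outside the comparisons above, since it names more than 1 gene. It was higher in HHT by 1.83 on the log2 scale (SE 0.344, limma adjusted p = 0.00126). Vehicle arrays read 7.65, 6.46 and 6.18 and HHT arrays 8.37, 9.02 and 8.37, without overlap. Which of the 2 genes gave the signal was not tested.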

How the results depend on the processing

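The number of autophagy genes that rose stayed between 16 and 25 of the 37 tested (36 with the 60% filter) under every alternative run, except where a log2 change of at least 1 was required (7). The share of all genes that rose ran from 24.4% to 41.6% over the same settings, and was 9.56% where that change was required. SQSTM1, NBR1, OPTN, WIPI1, ATG4C and ATG14 were called higher under every alternative, and GABARAPL1 in all but the 60% filter, which did not test it, and the choice of probe sets by vehicle mean. The count that fell, 1, was 0 with equal medians, equal hybridisation controls, no filter, an adjusted p under 0.01 or a change of at least 1 (limma, 4 genes at an unadjusted p under 0.05 without a filter and 0 under the first 2 and the last). It was 3 after quantile normalization (ULK1, ATG5, BNIP3), 2 with the 60% filter (ULK1, GABARAP), 2 with the replicate block (ULK1, BNIP3) and 4 from the means of probe sets (ULK1, ATG3, BNIP3, WIPI2). It ran from 0 to 2 when an array was left out. Of all genes, 12.7% to 31.3% fell under these alternatives, and 5.94% at a change of at least 1. The replicate block left the 21 genes that rose the same, and the only call it changed among the 37 was that of BNIP3, to lower. The number of further genes that fell, 6, was 2 under either of these shifts of the arrays (equal medians, equal hybridisation controls) and 0 at a change of at least 1, and the number that rose, 21, was 6 there. With probe sets chosen by their vehicle mean, 20 further genes rose and 7 fell, against 28.9% and 24.7% of all genes. Signs turned for the means of probe sets in ATG2B (0.47), ATG3 (-1.25), ATG7 (-0.37) and ATL3 (0.19), by construction through the dimmer probe sets, for MAP1LC3B read from its probe set of highest vehicle mean (-0.0044), and for RAB7A with equal hybridisation controls (0.024). Genes not called under either setting were not counted as turned. Pseudocounts of 16 and 64 changed no call among the 37. Dim genes are limited by signal: with a vehicle SD of 0.527, GABARAPL1 has an interval from 1.00 to 2.36.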

Other observations

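Genes of the further list whose probe sets all lay under the filter level were not tested. The brighter ATG9B probe set read 5.14, 4.66 and 1.84 in vehicle and 5.52, 5.60 and 5.92 in HHT, without overlap. MAP1LC3C had means of 3.96 ± 2.20 and 3.87 ± 1.49 (SD, n = 3), and MAP1LC3B2 of 4.25 ± 0.996 and 3.68 ± 1.28 (SD, n = 3), both with overlap between the groups.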
